A study of Mus musculus with 2 samples.

Results

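CCR2+ macrophages of the infarcted neonatal mouse heart are described here as single cells that carried transcripts of both C1q, a complement component made by macrophages, and *Ccr2*, the receptor for the monocyte chemoattractant CCL2. Members were chosen by measured values. A cell barcode needed 1000 or more detected genes and no more than 10% mitochondrial UMIs (unique molecular identifiers, each a tag of 1 RNA molecule). It also needed at least 10 UMIs of *C1qa*, *C1qb* and *C1qc* together per 10000, at least 5 *Ccr2* UMIs and fewer than 3 UMIs of *Cd209a*, a dendritic cell gene. The rule found 283 cells, 168 in the wild-type (WT) library and 115 in the *Lyve1* knockout (KO) library, out of 6149 barcodes within the limits on genes and mitochondrial UMIs (3380 WT and 2769 KO) and 10998 barcodes in all (5713 WT and 5285 KO). *Ccr2*, C1q and *Cd209a* are therefore no findings.

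The 2 libraries held live CD45+ cells (immune cells, negative for the dead-cell stain 7AAD) sorted from hearts of mice that had myocardial infarction (MI) on postnatal day 2, and the hearts were collected 7 days after it from 9-day-old mice. Each library pooled 5 hearts, WT in one and *Lyve1* KO in the other, and every heart was infarcted. *Lyve1* encodes a hyaluronan receptor of lymphatic endothelium and resident macrophages, and the labels give the genotype only as *Lyve1* KO. The study adds "macrophage-specific" to this name for its conditional line, so the library is taken here as deletion in the whole animal. The tissue label is heart, so the position of a cell relative to the infarct is unknown, and neither the strain of the 2 pools nor the heart of origin of a cell was used here. Each genotype has 1 library, and cells were not assigned to hearts here, as the paper did from single-nucleotide polymorphisms. The genotypes were therefore not tested against each other, and the 95% intervals given below cover counting error only.

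Macrophages of the newborn heart come from 2 sources. Resident macrophages are seeded before birth, renew themselves locally and mostly lack CCR2, whereas CCR2+ macrophages derive from circulating Ly6C-high monocytes that enter injured tissue. As these monocytes mature they lose monocyte genes and gain C1q and other macrophage genes, and in wounded or lipid-laden tissue some of them come to express *Spp1* (osteopontin, a secreted matrix and cytokine-like protein) and *Gpnmb* (a glycoprotein of lysosomes and cell surface).

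The members carried the general macrophage genes. *Csf1r*, the receptor for the macrophage growth factor CSF1, had a UMI in all 168 WT and all 115 KO members. *Adgre1*, which encodes F4/80, was found in 165 and 111, and *Fcgr1*, which encodes the Fc receptor CD64, in 159 and 109. At a common depth of 13300 UMIs per cell, the 3 genes had a UMI in 100%, 98.6% and 84.1% of WT members and in 100%, 89.9% and 88.1% of KO members. In lymphocytes the shares were 3.003%, 5.11% and 1.80% in WT and 2.42%, 3.23% and 2.02% in KO. Of the defining genes of dendritic cells, *Flt3* and *Zbtb46* were close to absent. *Flt3*, the growth factor receptor of conventional dendritic cells, had 6 UMIs in each library, and *Zbtb46*, their transcription factor, had 10 in WT and 5 in KO. The limit on *Cd209a* removed 2 KO cells and no WT cell. The dendritic cell list of 14 genes summed to 284 CPM (counts per 1000000 UMIs) in WT and 326 CPM in KO, most of it from *Clec10a*, *Mgl2*, *Batf3* and *Itgax*, which macrophages also express. Whether any of it came from dendritic cells was not tested.

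Marker lists of other cell types were measured in the same way. Neutrophil markers (12 genes) summed to 113 CPM in WT and at 85.5 CPM in KO, with *Csf3r* the most abundant and *Ly6g* and *Camp* at 0 in both. B cell markers (8 genes) summed to 173 and 191 CPM, led by *Ighm*, with 34.3% of the KO UMIs from 1 cell. T and NK cell markers (11 genes) summed to 25.6 CPM in WT, 47.9% of it from 1 cell, and to 1.82 CPM in KO. Cardiomyocyte markers (10 genes) were at 86.1 CPM in WT, 43.0% of it from 1 cell with *Nppa* as the most abundant gene, and at 15.9 CPM in KO. Fibroblast and endothelial markers (10 genes) were at 53.1 and 57.1 CPM, with *Pecam1* the most abundant. Erythroid and platelet markers (9 genes) were the highest, at 1139 CPM in WT and at 674 CPM in KO. Nearly all of it was *Pf4* (5051 of 5383 UMIs in WT and 2540 of 2587 in KO), which is also on the resident macrophage list. *Gp9*, a platelet receptor gene, was at 0 in both. *Hbb-bs*, a haemoglobin chain, and *Ppbp*, a platelet chemokine, were past 2-fold lower in KO members, at 22.4 and 3.91 CPM and at 40.2 and 5.47 CPM. The part of these transcripts in the results below was not tested. Of the 9 barcodes present in both libraries, none was a member.

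Members made up 4.97% of the WT barcodes within the limits (95% exact interval 4.26 to 5.76%) and 4.15% of the KO barcodes (3.44 to 4.96%). The difference of -0.817 percentage points had a counting interval from -1.86 to 0.241, which takes in 0. With *Ccr2* of at least 5 per 10000 UMIs it was -0.947 points with an interval from -1.83 to -0.0474, which does not. Of the C1q-positive barcodes, in contrast, members were 11.9% in WT (168 of 1409, 10.3 to 13.7%) and 18.9% in KO (115 of 608, 15.9 to 22.3%), a difference of 6.99 points (3.57 to 10.7), which was 3.05 points with the cell limits of the study. Within the limits, 41.7% of WT barcodes and 22.0% of KO barcodes were C1q-positive. The larger share of members among KO macrophages thus stood beside fewer C1q-positive cells without *Ccr2* UMIs (1120 in WT and 461 in KO) and not beside a larger share of members among all cells.

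The limit on *Ccr2* is a number of UMIs and so depends on how deeply a cell was sequenced. Members held a median of 26201 UMIs in WT and 30034 in KO, against 16060 and 17251 over all barcodes within the limits. Their *Ccr2* counts ran from 5 to 83 UMIs in WT (median 15) and from 5 to 122 in KO (median 22). Just outside the limit, with 4 *Ccr2* UMIs, lay 15 WT and 4 KO cells, and just inside, with 5, lay 12 and 6. The WT cells just outside carried *Folr2* (a folate receptor of resident macrophages) at 223 CPM and those just inside at 295 CPM, whereas in KO it was at 48.2 CPM just outside and 0 just inside. *Spp1* in KO was at 5842 CPM in the 4 cells just outside and 136 CPM in the 6 just inside, and in WT at 467 and 43.1 CPM. The WT members with 20 or more *Ccr2* UMIs carried *Folr2* at 75.8 CPM. At the C1q limit, 10 WT and 11 KO barcodes with 5 to 10 C1q UMIs per 10000 were just outside, and 18 and 10 members with 10 to 20 were just inside. In WT, *Ly6c2* was at 549 CPM in those just outside and 223 CPM in those just inside, and in KO at 129 and 89.9 CPM. *H2-Aa*, an MHC class II gene, was at 767 CPM just outside and 1486 CPM just inside in WT, but at 4027 and 2062 CPM in KO.

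Members were compared with 2 neighbouring classes in the same libraries, as a description. The first is the C1q-positive barcodes with 0 *Ccr2* UMIs and under 3 *Cd209a* UMIs (1120 WT and 461 KO), called CCR2- macrophages below. The second is monocytes, here barcodes under the C1q limit with at least 5 *Ccr2* and at least 5 *Ly6c2* UMIs and under 3 of *Cd209a* (189 WT and 225 KO). Levels are the CPM of a class from its summed UMIs, and each log2 ratio is between levels raised by 10 CPM.

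MHC class II genes, which present peptides to CD4 T cells, set the members furthest apart from CCR2- macrophages. Over those cells, 113 of 11297 genes (1.0%) were at least 2-fold higher in both libraries and 121 (1.07%) at least 2-fold lower. *H2-Aa*, a chain of the MHC class II molecule, was at 1712 CPM in WT members and 39.6 CPM in WT CCR2- macrophages, and at 2060 and 19.3 CPM in KO. The log2 ratios were 5.12 and 6.14. *H2-Eb1* and *H2-Ab1*, which encode other chains of the molecule, had ratios of 5.07 and 4.85 in WT and 6.23 and 5.80 in KO. *Cd74*, the invariant chain that escorts these molecules, was at 6120 CPM in WT and at 7118 CPM in KO members against 375 and 285 CPM. Of the 10 genes of the MHC class II list, 7 were past 2-fold and none was lower, with median log2 ratios of 1.99 in WT and 2.50 in KO, against -0.10 and -0.08 over all genes tested.

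Next to MHC class II came genes shared with monocytes. *Plbd1*, a phospholipase B-like protein, *Sirpb1c*, a signal-regulatory receptor, *Napsa*, an aspartic protease, the calcium-binding proteins *S100a6* and *S100a4*, and *Mefv*, which encodes the inflammasome protein pyrin, complete the 10 highest. *Plbd1* was at 320 CPM in WT and at 372 CPM in KO members, at 24.4 and 20.9 CPM in CCR2- macrophages, and at 603 and 607 CPM in monocytes. The members thus lay between the other classes for this gene. *Il1b*, the inflammatory cytokine interleukin-1β, did not lie between them. It was at 1223 CPM in WT and at 1215 CPM in KO members, at 352 and 431 CPM in CCR2- macrophages and at 939 and 806 CPM in monocytes. *Il1rn*, which encodes the receptor antagonist that blocks interleukin-1, was likewise highest in the members, at 83.8 CPM in WT and at 251 CPM in KO, against 26.5 and 33.9 CPM in CCR2- macrophages and 16.9 and 49.985 CPM in monocytes. *Mmp19*, a matrix metalloproteinase, was at 59.3 and 113 CPM in the members, 14.9 and 20.5 CPM in CCR2- macrophages, and 38.7 and 59.5 CPM in monocytes.

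Of the 22 genes of the resident macrophage list, 13 were past 2-fold lower than in CCR2- macrophages and none was higher, with medians of -1.36 in WT and -1.93 in KO. *Cd163*, the scavenger receptor for haemoglobin complexes, was at 20.95 CPM in WT and at 17.5 CPM in KO members against 207 and 219 CPM. *Slc40a1*, the iron exporter ferroportin, was at 11.2 and 8.86 CPM against 182 and 135 CPM. *Folr2* was at 137 and 58.4 CPM against 534 and 581 CPM, and *Gas6*, a bridging ligand that links dying cells to the receptors AXL and MERTK, at 98.8 and 31.3 CPM against 417 and 343 CPM. Among the 10 lowest were also *Pmp22*, *Ccn1*, *Vsig4*, *Samd4*, *Npl* and *Fcna*. The chemokines *Ccl2*, *Ccl7* and *Ccl8*, which act through CCR2 and related receptors, were past 2-fold lower in the members in both libraries, with *Ccl2* at 385 and 319 CPM against 812 and 776 CPM.

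From monocytes the members differed at more genes, with 338 of 9368 (3.61%) at least 2-fold higher in both libraries and 279 (2.98%) at least 2-fold lower. *Mrc1*, the mannose receptor CD206, was at 1258 CPM in WT and at 908 CPM in KO members against 8.65 and 12.3 CPM. *Igf1*, a growth factor, was at 275 and 389 CPM against 1.24 and 2.26 CPM. *Fcrls*, *Ms4a7*, *Dab2*, *Cd63*, *Gatm*, *Cxcl16*, *Slamf9* and *Psd3* made up the rest of the 10 highest, the least of their log2 ratios being 3.56. Of the 19 genes of the resident list that were tested, 16 were past 2-fold higher and none lower, and 9 of these 16 were also past 2-fold lower than in CCR2- macrophages. Of the 4 dendritic cell list genes tested, *Clec10a*, *Mgl2* and *Itgax* were past 2-fold higher than in monocytes (medians 1.56 in WT and 1.83 in KO). Against CCR2- macrophages only *Itgax* was, of 8 tested (medians -0.26 and -0.39). Of the genes lower than in monocytes, *Hp* (haptoglobin) was at 96.5 and 88.1 CPM against 1090 and 1078 CPM, and *Vcan* (versican) at 18.8 and 18.5 CPM against 388 and 283 CPM. *Ifitm6*, *Mgst1*, *Arhgef37*, *Gsr*, *Mmp8*, *Plac8*, *Pglyrp1* and *Gm9733* were the other 8 of the 10 lowest.

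**Figure D1:**
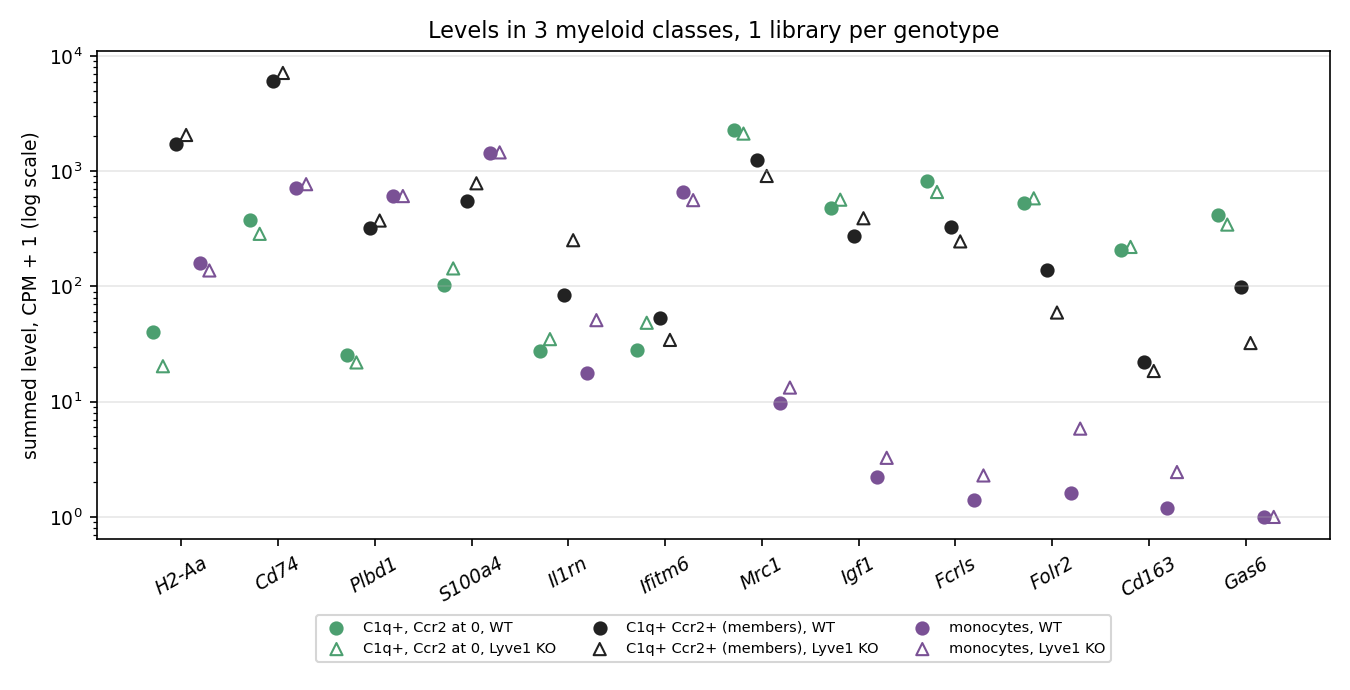
Summed level (CPM + 1, log scale) of 12 genes in CCR2- macrophages, members and monocytes, with a filled circle for the WT and an open triangle for the KO library (1 library each, no error shown). *H2-Aa* and *Cd74* were highest in the members, *Mrc1* to *Gas6* lay between the other 2 classes, and *Ifitm6* in the members was at 52.3 and 33.3 CPM against 654 and 560 CPM in monocytes.

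To describe the range from monocyte-like to *Spp1*/*Gpnmb*-high cells, each member was given a position, log2(1 + *Spp1* and *Gpnmb* UMIs per 10000) minus log2(1 + *Ly6c2* and *Plac8* UMIs per 10000). *Ly6c2* is the classical monocyte surface protein and *Plac8* a monocyte gene. The range was then divided at the 25th and 75th percentiles of all 283 positions, and 99 members (35.0%) sat at exactly 0. These are parts of a range and not cell types. The monocyte end (position up to -1.26) held 43 WT and 28 KO cells, the middle 91 and 50, and the *Spp1*/*Gpnmb* end (above 0.689) 34 and 37. There were 16 members within 0.5 of the first limit and 28 within 0.5 of the last.

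Most cells held one kind of transcript or none. At a common depth of 13300 UMIs per cell, which kept 145 WT and 109 KO members, the monocyte genes alone were found in 25.5% of WT and 29.4% of KO members, and *Spp1* or *Gpnmb* alone in 24.1% and 24.8%. Neither kind was found in 42.1% (33.9 to 50.5%) and 30.3% (21.8 to 39.8%). Cells with both made up 12 WT (8.28%, 4.35 to 14.01%) and 17 KO members (15.6%, 9.36 to 23.8%).

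**Figure D2:**
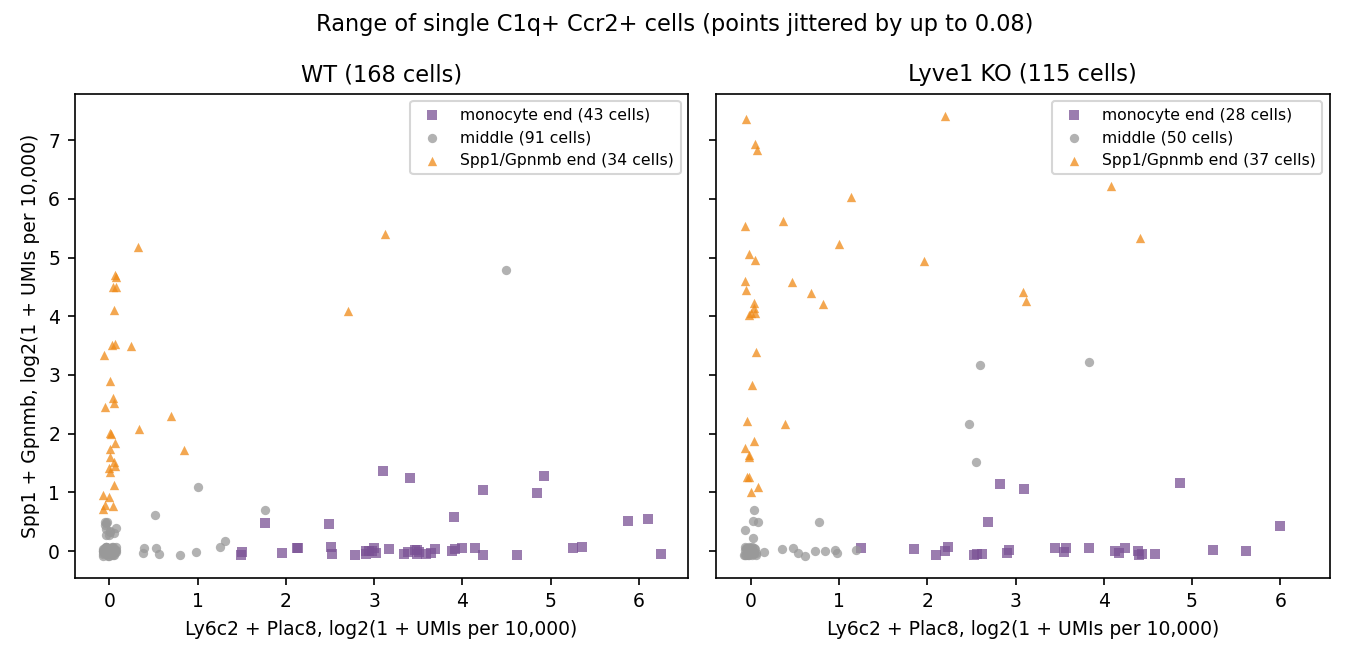
Each point is 1 member, WT on the left (168 cells) and *Lyve1* KO on the right (115 cells), with *Ly6c2* and *Plac8* on the x axis and *Spp1* and *Gpnmb* on the y axis, both as log2(1 + UMIs per 10000) with a jitter of up to 0.08. Cells lie mostly along the axes, with 69 WT and 30 KO members at the origin, and the KO library has more cells high on the y axis.

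The *Spp1*/*Gpnmb* end took 20.2% of the WT members (14.4 to 27.1%) and 32.2% of the KO members (23.8 to 41.5%), a difference of 11.9 points (1.62 to 22.4). The monocyte end took 25.6% and 24.3%, a difference of -1.25 points (-11.2 to 9.23). The KO cells of the *Spp1*/*Gpnmb* end were deeper, with a median of 35176 UMIs against 22699 in WT, and the part of depth was not tested. The difference was 5.56 points (-6.45 to 18.3) with *Ccr2* of at least 5 per 10000 UMIs. With the position taken from the full lists of lipid-handling and monocyte genes, the share of KO members above the 75th percentile was 7.11 points lower than that of WT (-16.8 to 3.28).

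Genes not used for the position also varied along it. Of 7597 genes, 52 (0.684%) were at least 2-fold higher at the *Spp1*/*Gpnmb* end than at the monocyte end in both libraries, and 39 (0.513%) at least 2-fold lower. *Cd63*, a tetraspanin of late endosomes and lysosomes, went from 87.7 CPM at the monocyte end to 454 CPM at the *Spp1*/*Gpnmb* end in WT and from 86.0 to 507 CPM in KO. *Cd9*, another tetraspanin, went from 97.1 to 293 CPM in WT and from 76.0 to 613 CPM in KO. *Blnk*, an adaptor of immune receptor signalling, *Rhoc*, a small GTPase, *Fcrls*, an Fc receptor-like protein, *Tanc2*, *Nek6*, *Ms4a7*, *Slc37a2* and *Arhgap22* complete the 10 highest, with log2 ratios from 1.24 to 2.40. These ratios compare the 2 ends only. *Fcrls* was higher in the middle than at the *Spp1*/*Gpnmb* end, at 434 against 311 CPM in WT and 351 against 255 CPM in KO. So was *Blnk*, at 87.8 against 77.6 CPM in WT and 117 against 108 CPM in KO. *Tanc2* in WT and *Arhgap22* in KO were also highest in the middle.

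Of the lipid-handling list, 18 genes could be compared after *Spp1* and *Gpnmb* and low genes were left out, and 7 were past 2-fold higher and none lower (median 0.65 in WT and 1.17 in KO, against -0.01 and -0.04 over all genes tested). *Trem2*, a lipid-sensing receptor, was at 264 CPM at the monocyte end and 629 CPM at the *Spp1*/*Gpnmb* end in WT, and at 217 and 678 CPM in KO. *Fabp5*, a fatty acid carrier, was at 164 and 504 CPM in WT and at 242 and 581 CPM in KO, with 21.2% of its WT UMIs in 1 cell. *Lpl*, which releases fatty acids from lipoproteins, was at 143 and 492 CPM in WT and at 103 and 289 CPM in KO. *Mmp12*, a macrophage elastase, was also past 2-fold, but 36.6% of its WT and 43.2% of its KO UMIs came from 1 cell. Of 16 cell cycle genes, *Tk1* and *Stmn1* were past 2-fold higher at this end and none lower (medians 0.38 and 1.78), with 28.0% and 32.8% of their KO UMIs in 1 cell. Of the 3 erythroid and platelet markers tested, *Ppbp* and *Pf4* were past 2-fold higher (medians 1.10 and 1.07), and their part in the other values was not tested. *Pf4* is also on the resident macrophage list. Of the 19 genes of that list tested, *Fcrls*, *Olfml3* and *Pf4* were past 2-fold higher and none lower (medians 0.28 in WT and 0.10 in KO).

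The genes highest at the monocyte end were of several kinds. *Cytip*, a regulator of leukocyte adhesion, was at 516 CPM there and 158 CPM at the other end in WT, and at 390 and 96.3 CPM in KO. *Plbd1* was at 624 and 201 CPM in WT and at 630 and 250 CPM in KO. *Adgre4*, *Pmaip1* (the death-promoting BCL2 family member NOXA), *Ceacam1*, *Arhgap26*, *Gbp9*, *Nab1* and *Zfyve9* belong to the same 10 lowest by ratio. *Ifitm3*, an interferon-induced membrane protein, was the most abundant of them, at 2653 and 1022 CPM in WT and at 2490 and 1021 CPM in KO. Of the interferon-stimulated list, 4 of 14 genes (*Isg15*, *Rsad2*, *Ifitm3* and *Ifi205*) were past 2-fold higher at the monocyte end and none lower. *Isg15* was at 648 and 171 CPM in WT and at 575 and 152 CPM in KO, with 16.0% and 19.3% of its UMIs in 1 cell. Of the classical monocyte genes outside the position, *Ifitm6*, *Vcan* and *Itgal* were past 2-fold higher at the monocyte end.

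Some genes were highest in the middle group. Of its cells, 69 of 91 in WT and 30 of 50 in KO sat at position exactly 0. The group is therefore mostly cells off both axes and need not be a stage between the ends. *H2-Aa* was at 1550, 2038 and 1022 CPM from the monocyte end to the *Spp1*/*Gpnmb* end in WT and at 1663, 3284 and 915 CPM in KO. *Retnla*, which encodes a secreted protein of alternatively activated macrophages, was at 758, 2088 and 8.39 CPM in WT and at 2351, 6956 and 1.46 CPM in KO. It was thus near 0 at the *Spp1*/*Gpnmb* end in both libraries. Only 22 WT and 15 KO members held a *Retnla* UMI, and the top 5 cells held 76.1% and 83.0% of these UMIs. *Mmp19* went in opposite directions in the libraries, from 95.4 to 50.3 CPM in WT and from 70.4 to 201 CPM in KO. In KO 34.3% of its UMIs came from 1 cell.

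**Figure D3:**
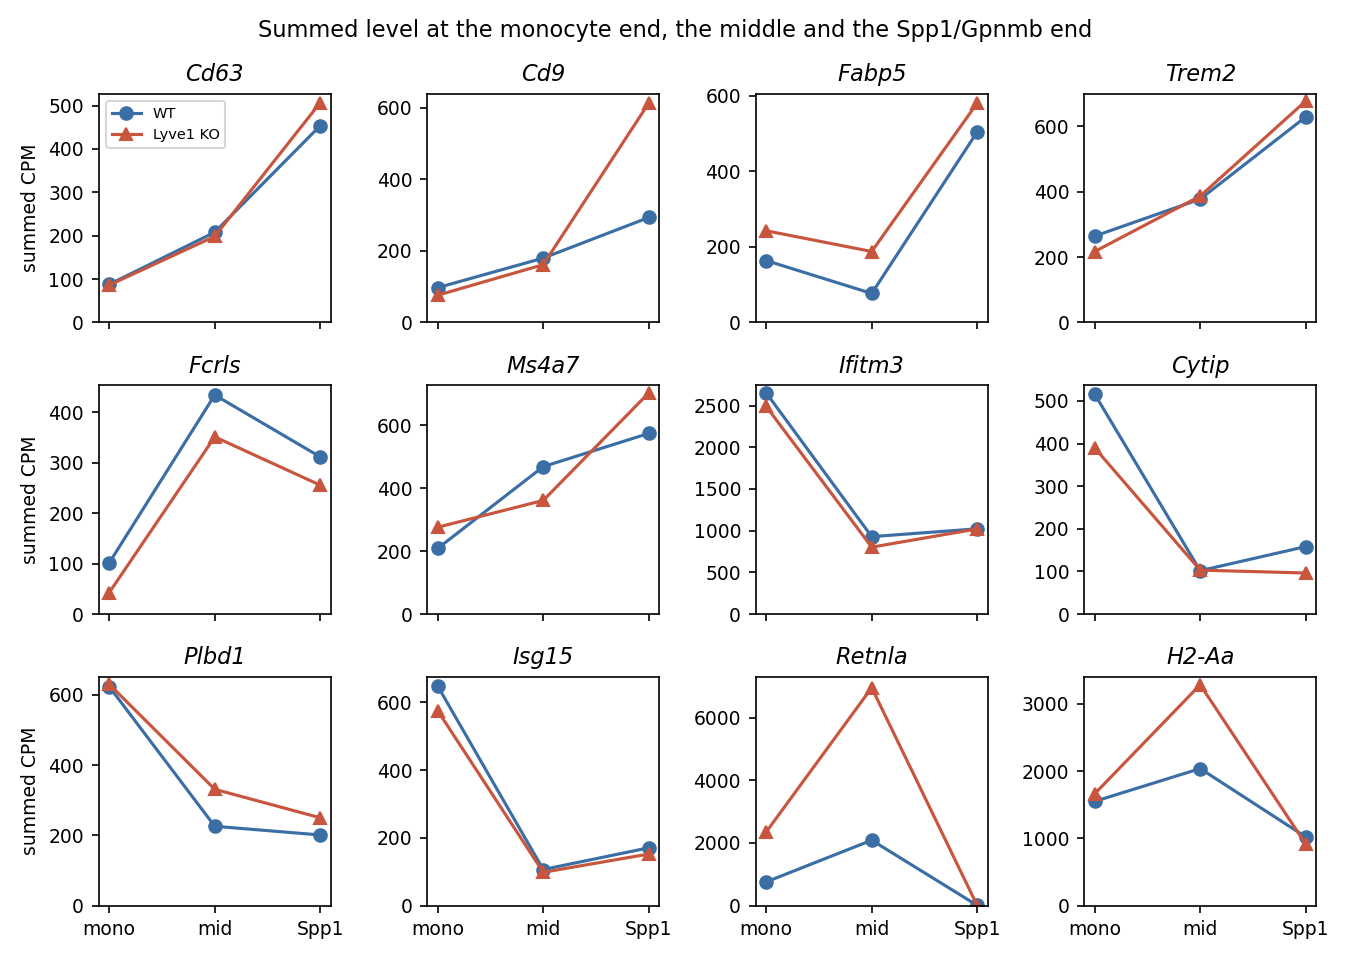
Summed level (CPM, y axis from 0) of 12 genes at the monocyte end, in the middle and at the *Spp1*/*Gpnmb* end, with circles for WT (43, 91 and 34 cells) and triangles for KO (28, 50 and 37 cells). *Cd63*, *Cd9* and *Trem2* were highest at the *Spp1*/*Gpnmb* end, *Ifitm3*, *Cytip*, *Plbd1* and *Isg15* at the monocyte end, and *Retnla* and *H2-Aa* in the middle of both libraries. In the middle, 69 WT and 30 KO cells sat at position exactly 0.

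A further division ran through the members by MHC class II, chosen after the values were seen. *H2-Aa* had 0 UMIs in 97 of 168 WT members (57.7%, 49.9 to 65.3%) and in 55 of 115 KO members (47.8%, 38.4 to 57.3%). It had 20 or more UMIs in 47 WT (28.0%, 21.3 to 35.4%) and 40 KO members (34.8%, 26.1 to 44.2%). Members with 20 or more had median UMIs of 28345 in WT and 32883 in KO, against 25644 and 28989 in members with 0, so they were somewhat deeper. The part of depth was not tested.

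The other MHC class II genes differed with *H2-Aa* across this division. *Ciita*, the transcription factor that switches them on, was at 0.379 CPM in WT members with 0 *H2-Aa* UMIs and 57.7 CPM in those with 20 or more, and at 0.570 and 69.1 CPM in KO. *Cd74* was at 481 and 17553 CPM in WT and at 754 and 16466 CPM in KO. *Flt3* was at 0.379 and 3.43 CPM in WT and at 1.14 and 2.71 CPM in KO.

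Members with 20 or more *H2-Aa* UMIs had less of the monocyte gene *Ly6c2*, at 21.3 CPM against 111 CPM in those with 0 in WT and at 27.8 against 99.7 CPM in KO. They also had less *Gas6*, at 37.8 against 129 CPM in WT and 20.3 against 39.9 CPM in KO, and less *Folr2*, at 83.1 against 167 CPM and 39.3 against 84.9 CPM. Not all resident genes differed so. *Cd163* was at 22.7 against 14.8 CPM in WT and 17.6 against 17.1 CPM in KO, *Lyve1* in WT at 77.6 against 76.1 CPM, and *Mrc1* at 988 against 1437 CPM in WT but 1020 against 897 CPM in KO. *Retnla* was higher in them, at 3567 against 75.3 CPM in WT and at 6402 against 663 CPM in KO. Few cells carried it, since 22 WT and 15 KO members held any UMI and the top 5 cells held 76.1% and 83.0% of the total. At equal depth, the Spearman correlation across cells between the MHC class II and resident lists was -0.33 in WT (145 cells) and -0.28 in KO (109 cells), and between MHC class II and classical monocyte lists 0.06 and 0.13. Cells of 1 library share its depth and free RNA, so these values are descriptions.

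**Figure D4:**
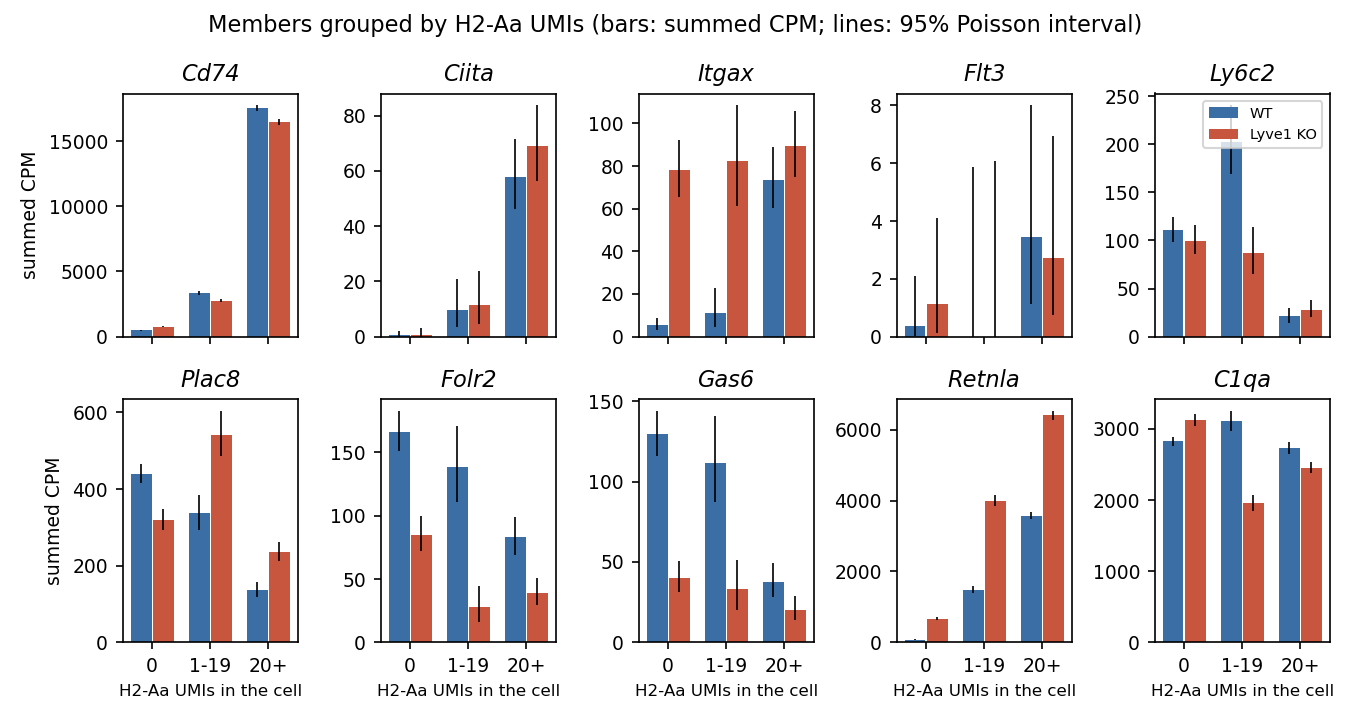
Summed level (CPM, y axis from 0) of 10 genes in members with 0, 1 to 19, and 20 or more *H2-Aa* UMIs (97, 24 and 47 WT cells and 55, 20 and 40 KO cells), with lines for the 95% Poisson interval. *Cd74* and *Ciita* were concentrated in cells with 20 or more, *C1qa* was part of the rule that chose the cells, and *Itgax* was low in WT cells with 0 to 19 *H2-Aa* UMIs but not in KO cells.

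Between the libraries, 20 of 7605 genes with at least 100 UMIs (0.263%) were at least 2-fold higher in KO than in WT members and 38 (0.5%) at least 2-fold lower. The median log2 ratio over all genes tested was -0.06. Many of these genes rested on few cells. In 17 of the 20 and 25 of the 38 a single cell held over 10% of the UMIs of the higher library, and without the top cell of each library 11 and 25 were still past 2-fold. Of the 20, 3 were also past 2-fold in the same direction over all other barcodes within the limits, and of the 38, 11 were.

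*Spp1* (ENSMUSG00000029304, chromosome 5 from 104435118 to 104441050, GRCm38) differed most among the marker genes. It was at 181 CPM in WT members (857 UMIs in 53 cells) and 1353 CPM in KO members (5192 UMIs in 51 cells), a log2 ratio of 2.83 (2.73 to 2.93). Both the share of cells with *Spp1* and the level in them were higher in KO. In WT 2 and in KO 11 cells held 100 or more UMIs and the top 5 cells held 52.2% and 61.6% of the total. At the common depth a UMI was found in 29.7% of WT (22.4 to 37.8%) and 38.5% of KO members (29.4 to 48.3%), and in 0.300% and 1.01% of lymphocytes, whose median depth was 14474 and 14710 UMIs. Without this thinning the shares were 31.5% and 44.3%. The ratio was positive under all 16 alternatives computed for it, but was 0.73 when the *Ccr2* limit was set as at least 5 per 10000 UMIs (126 WT and 77 KO cells). In all other barcodes the log2 ratio was 1.33, and in CCR2- macrophages 2.12.

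*Gpnmb* (ENSMUSG00000029816, chromosome 6 from 49036546 to 49070929) was at 35.6 CPM in WT (168 UMIs in 17 cells) and 93.5 CPM in KO (359 UMIs in 17 cells). The log2 ratio of 1.18 (0.96 to 1.41) was 0.74 without the top cell of each library, since 1 KO cell held 47.1% of the UMIs, and turned to -1.61 with the *Ccr2* limit per 10000 UMIs. *Fabp5* was at 185 and 341 CPM (0.85, 0.73 to 0.97) and *Lgals3*, a galectin of activated macrophages, at 816 and 1349 CPM (0.72, 0.66 to 0.78). The *Fabp5* ratio was 0.165 at the lowest of the 16 alternatives computed for it. *Trem2* was at 400 and 451 CPM. Of the 20 lipid-handling genes tested, *Spp1* and *Gpnmb* were past 2-fold higher in KO and *Hmox1*, which encodes haem oxygenase 1, was past 2-fold lower, at 506 and 232 CPM, with a median of 0.25.

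*Il1rn* (ENSMUSG00000026981, chromosome 2 from 24336853 to 24351494) was more widely spread. It was at 83.8 CPM in WT (396 UMIs in 68 cells) and 251 CPM in KO (963 UMIs in 73 cells), a log2 ratio of 1.48 (1.32 to 1.63). At the common depth it was found in 33.8% of WT members (26.2 to 42.1%) and 52.3% of KO members (42.5 to 61.9%), against 0.901% and 0.806% of lymphocytes, and without thinning in 40.5% and 63.5%. The level was higher in KO at the monocyte end (84.3 and 272 CPM) and at the *Spp1*/*Gpnmb* end (113 and 415 CPM), and closer in the middle (72.8 and 96.0 CPM). The same ratio was -0.07 over all other barcodes, 0.27 in CCR2- macrophages and 1.16 in monocytes. *Il1b* was at 1223 CPM in WT and at 1215 CPM in KO members, so the antagonist and the cytokine differed unequally between the libraries. Of the 14 genes of the interleukin-1 and inflammatory cytokine list, *Il1rn* was the 1 past 2-fold higher and *Il10* the 1 past 2-fold lower, at 24.1 and 1.30 CPM in 14 and 5 cells. *Tnf* was at 208 and 110 CPM, a log2 ratio of -0.86 (-1.02 to -0.71).

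By the rule for named genes, which set aside genes with over 10% of the UMIs of the higher library in a single cell, the 8 highest in KO were *Gdpd3*, *Itgax*, *Acp5*, *Rai14*, *Tarm1*, *Atp5k*, *Fabp5* and *Gm44751*. *Itgax* encodes the integrin CD11c, which marks many dendritic cells and some activated macrophages. It was at 27.1 CPM in WT (29 cells) and 83.1 CPM in KO (55 cells), a log2 ratio of 1.33 (1.09 to 1.56), with 15.2% of WT (9.76 to 22.1%) and 37.6% of KO members (28.5 to 47.4%) holding a UMI at the common depth, 17.3% and 47.8% without thinning, and 3.003% and 1.61% of lymphocytes. In members with 20 or more *H2-Aa* UMIs the levels were 73.5 and 89.4 CPM, and in members with 0 they were 5.30 and 78.1 CPM. In WT *Itgax* was thus found mainly beside MHC class II, and in KO also without it. A single WT cell held 21.1% of the WT *Itgax* UMIs.

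*Acp5*, the tartrate-resistant acid phosphatase of osteoclasts and some macrophages, was at 52.7 and 135 CPM (1.21, 1.01 to 1.40), in 73 and 79 cells, and its ratio over all other barcodes was 0.31. *Gdpd3*, a lysophospholipase D, was at 8.25 and 37.8 CPM (1.39, 1.10 to 1.65), with a similar ratio of 1.23 over all other barcodes. *Tarm1*, an activating receptor of myeloid cells, was at 19.05 and 44.0 CPM (0.90, 0.62 to 1.16). *Rai14* had a ratio of 0.98, *Atp5k* of 0.85 and *Gm44751* of 0.84, and none of these 4 reached 2-fold.

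In summed levels no MHC class II or classical monocyte gene was past 2-fold, but the median member held more of both lists in KO, 15.2 UMIs of the MHC class II list per 10000 in WT and 30.95 in KO, and 6.55 and 13.7 of the classical monocyte list. *H2-Aa* (ENSMUSG00000036594, chromosome 17 from 34282744 to 34287823) was at 1712 CPM in WT and at 2060 CPM in KO, a log2 ratio of 0.27 (0.22 to 0.31), with 8087 UMIs in 71 and 7907 UMIs in 60 cells. The median ratio of the 10 MHC class II genes was 0.28 and that of the 11 classical monocyte genes tested -0.04. *Plac8* was at 333 and 323 CPM.

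Of 19 resident macrophage genes tested, 5 were past 2-fold lower in KO members (*Folr2*, *Timd4*, *Gas6*, *Igfbp4* and the deleted gene *Lyve1*, whose ratio turned to 0.13 with the *Ccr2* limit per 10000 UMIs) and none was past 2-fold higher, with a median of -0.68. The ratios of the list ran from -1.79 for *Timd4* to 0.49 for *Igf1*. *Folr2* was at 137 CPM in WT (648 UMIs in 52 cells) and 58.4 CPM in KO (224 UMIs in 28 cells), a log2 ratio of -1.11 (-1.30 to -0.91). *Gas6* was at 98.8 CPM in 64 cells and 31.3 CPM in 26 cells (-1.40, -1.63 to -1.16). *Slco2b1*, an organic anion transporter, was at 70.1 CPM in 89 cells and 25.01 CPM in 31 cells (-1.19, -1.44 to -0.94). In CCR2- macrophages these 3 genes had ratios of 0.12, -0.27 and -0.18. *Timd4*, a receptor for phosphatidylserine on dying cells, was at 44.2 CPM in 24 WT cells and 5.73 CPM in 7 KO cells.

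Among members with under 1 UMI of *Folr2*, *Lyve1*, *Cd163* and *Timd4* together per 10000 (126 WT and 97 KO), the ratio of *Spp1* was 2.78 and that of *Il1rn* 1.57.

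*Lyve1* itself (ENSMUSG00000030787, chromosome 7 from 110850607 to 110863239) was a minor gene of these cells. WT members held 320 UMIs in 20 cells (67.7 CPM), 34.4% of them in 1 cell, and CCR2- macrophages of the same library held 560 CPM. KO members held 52 UMIs in 30 cells (13.5 CPM), with at most 4 in a cell, and KO lymphocytes held 6.78 CPM. *Cd44*, another hyaluronan receptor, was at 754 CPM in WT and at 913 CPM in KO members (0.27, 0.20 to 0.34), against 382 and 525 CPM in CCR2- macrophages.

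Of 9 matrix genes tested, *Spp1* was the 1 past 2-fold higher in KO and none was lower, with a median of 0.57. *Fn1*, the matrix protein fibronectin, was at 1332 CPM in WT and at 2099 CPM in KO (0.65, 0.60 to 0.70), in 107 and 91 cells. *Tgfbi*, a matrix protein induced by TGF-β, was at 471 and 707 CPM (0.57, 0.49 to 0.65), whereas its ratio was -0.50 in CCR2- macrophages. *Mmp14*, a membrane-bound collagenase, was at 84.7 and 156 CPM (0.81, 0.64 to 0.98) in 97 and 78 cells. *Mmp19* (ENSMUSG00000025355, chromosome 10 from 128790910 to 128800824) was at 59.3 and 113 CPM (0.82, 0.63 to 1.02), in 54 and 53 cells, but the ratio was 0.03 with *Ccr2* of at least 8 UMIs and 0.27 with at least 5 per 10000. *Vegfa*, the vascular growth factor, was at 51.9 and 107 CPM (0.92, 0.72 to 1.13), in 40 and 41 cells. Of 13 protease genes tested none was past 2-fold higher and 2 were lower (*Mmp9* and *Serpinb2*), and 1 cell held 43.5% of the WT *Mmp9* UMIs and 90.5% of the WT *Serpinb2* UMIs. Of 12 growth factor genes tested none was past 2-fold, and the median was 0.31.

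*Retnla* was at 1338 and 3398 CPM (1.34, 1.30 to 1.38), the narrow interval covering only the counting of UMIs that came from 22 and 15 cells. In KO 35.4% of them came from 1 cell, and in female cells the ratio turned to -0.60, with 1237 CPM in WT and 815 CPM in KO. Of the 15 chemokine genes tested, *Cxcl1* was the 1 past 2-fold lower, at 145 and 56.3 CPM, and none was higher. Of the remaining lists, no gene of the interferon-stimulated (14 tested, median -0.31), glycolysis and hypoxia (22, 0.13), chemokine receptor (7, -0.20), cell cycle (16, -0.16) and BCL2 family (14, -0.21) lists was past 2-fold. The lysosome list (20 tested, median 0.18) had *Atp6v0d2* past 2-fold higher, the efferocytosis list (13, -0.10) had *Gas6* and *Timd4* lower, and the transcription factor list (25, -0.06) had *Irf4* lower.

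Among the 8 lowest named genes, 7 were also past 2-fold lower over all other barcodes, among them *Gas6* with a log2 ratio of -1.04 there, and the other was *Slco2b1* at -0.83. Within CCR2- macrophages alone, the ratios of *Gas6* and *Slco2b1* were -0.27 and -0.18. *Dynlt1b*, a dynein light chain, had 469 UMIs in 131 WT members (99.3 CPM) and 0 in KO members. A count of 0 allows up to 0.782 CPM (3 counts of 3838321), so it was at least 127-fold lower in KO. *Trim12a*, a member of the TRIM family, had 133 UMIs in 70 WT members and 0 in KO, at least 36.02-fold lower. *Trim30d* was at 61.2 and 9.12 CPM, *Mid1* at 41.7 and 4.43 CPM, *G530011O06Rik* at 28.2 and 0.782 CPM, and the mitochondrial gene *mt-Nd3* at 121 and 34.7 CPM. The log2 ratios of these 4 genes over all other barcodes were -2.34, -1.63, -2.27 and -1.55, and those of *Dynlt1b* and *Trim12a* -3.47 and -2.40. *Mid1* and *G530011O06Rik* lie on chromosome X, and 67.9% of WT and 55.7% of KO members held Y-linked but no *Xist* UMIs. Their ratios among these cells were -1.81 and -1.81, and among cells with *Xist* but no Y-linked UMIs -2.02 and -1.99. *Dynlt1b* and the TRIM genes have near-identical copies among which reads may be divided, so their counts are uncertain. Genotype and any difference in genetic background between the pools cannot be told apart here.

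**Figure D5:**
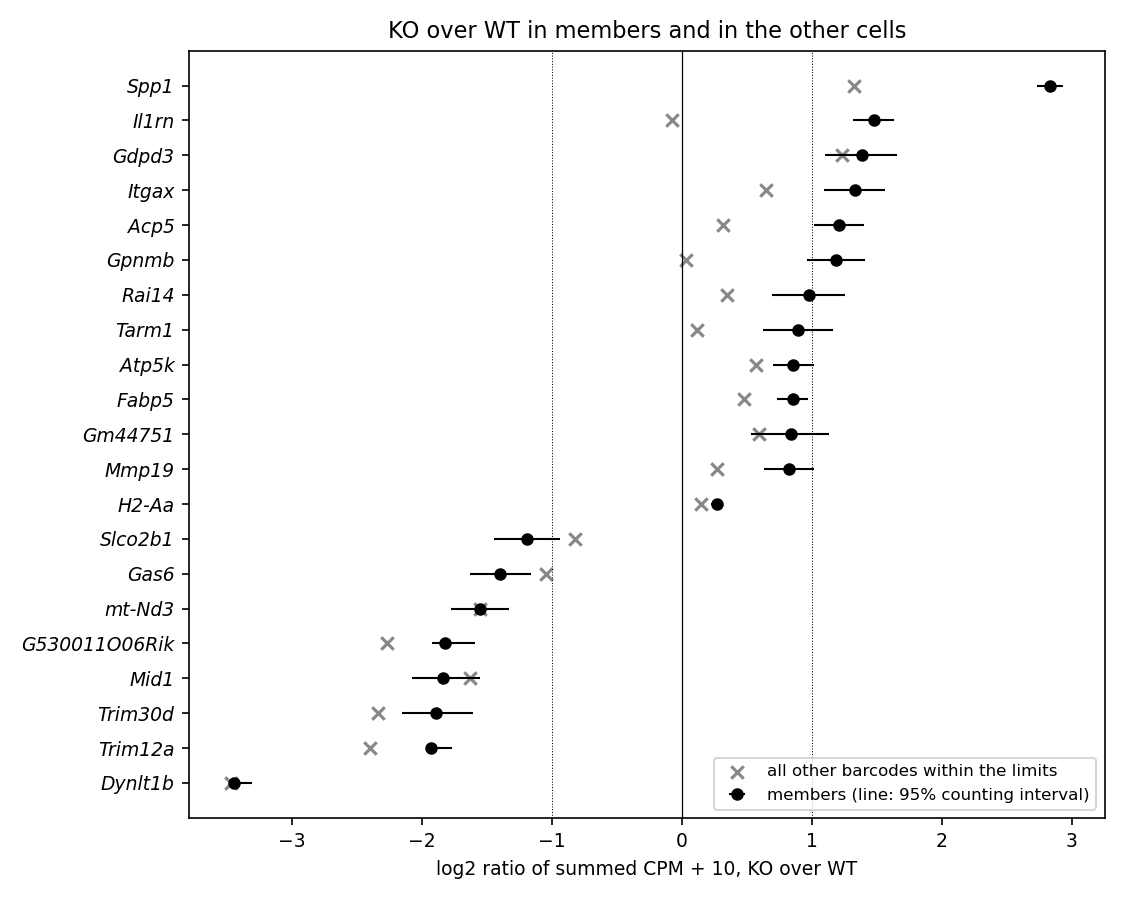
Log2 ratio of KO over WT (CPM + 10) for the marker genes and the 16 named genes in members (circles, with the 95% counting interval) and in all other barcodes within the limits (crosses), with dotted lines at 2-fold. *Il1rn* and *Spp1* lie apart from their crosses, whereas *Gdpd3*, *mt-Nd3* and *Dynlt1b* lie on or near theirs.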

How the data were processed

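Single-cell RNA-seq libraries of sorted CD45+ cells (10x Genomics 5′ chemistry) were deposited by the authors as raw counts, whole UMIs per gene and cell barcode for 32285 genes, with no normalization. Per the submitters' processing notes they were made with Cell Ranger 8.0.1 on mm10, while the paper's reporting summary names another version. In all, 67968938 UMIs were deposited for WT and 61555917 for KO, 4724672 and 3838321 of them in members. Every column of values was mapped to a sample (0 were left out).

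The cell rule and limits are given in the report. The members and the 26 gene lists were chosen with earlier results of these data known, and the markers, range and named genes with them. Summed UMIs of a class were divided by its total (CPM), 10 CPM was added before log2, and a gene was counted at 2-fold or more if members of both libraries held at least 100 UMIs together (members and the compared class in the comparisons between classes). Against another class or along the range, both libraries had to pass. Named genes were the markers, list genes described by role, and the 8 highest and 8 lowest KO over WT or 10 highest and 10 lowest in the other comparisons, leaving out *Xist* and 4 Y-linked genes, with UMIs in at least 10% of the members of 1 library and no cell with over 10% of the UMIs of the higher library (of either library along the range). For genes lower in members than in another class these limits were applied to the cells of that class, so some of them were in few members. Others were named after their values were seen, among them the division by *H2-Aa*. Shares have exact Clopper-Pearson intervals, differences of shares Newcombe intervals, levels Poisson intervals and ratios exact conditional intervals, all at 95%. With 1 library per genotype and no cell assigned to its heart, no test was made. The ratio and interval step was tested on simulated Poisson sums per gene. These follow the counting model of the intervals and hold no spread between cells, so the test does not cover UMIs concentrated in few cells.

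Lymphocytes were barcodes within the limits with at least 5 *Cd79a* or 3 *Cd3e* UMIs. Cells were thinned to 13300 UMIs without replacement, leaving out 23 WT and 6 KO members. Doublets were kept: scrublet (scanpy 1.11.5) called 3 WT and 5 KO barcodes, too few to have worked. An alternative therefore left out the highest scores, 77 of 3380 WT and 59 of 2769 KO barcodes within the limits. These held 15 of 168 WT and 10 of 115 KO members, so members were over-represented among them. Both *Xist* and Y-linked UMIs were found in 5 WT and 4 KO members. Alternatives changed the cell limits, the *Ccr2*, C1q and *Cd209a* limits, depth, position, weighting, added CPM, count filter and sex. Python 3.11.15, numpy 2.4.6, scipy 1.17.1, pandas 2.3.3 and matplotlib 3.10.9 were used, with gene positions from GENCODE M21 (GRCm38). The result of 1 gene is not reported here.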

Additional observations from a re-analysis of the deposited data

Results flagged for a closer look

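Some results had opposite directions in cells of either sex, read from *Xist* and Y-linked UMIs (114 male and 47 female WT members, 64 and 45 KO members). The difference between sexes was not tested, and each library pools hearts of both. The log2 ratio of *Gpnmb*, KO over WT, was 0.92 in male and -0.45 in female cells, from 25.7 and 57.7 CPM in male and 65.1 and 44.8 CPM in female cells. That of *Retnla* was 2.45 in male and -0.60 in female cells, where 3 WT and 4 KO female members held any UMI. The share of members at the monocyte end was 11.8 percentage points higher in KO than in WT among male cells (-1.46 to 25.6) and the same difference was -14.1 points among female cells (-30.7 to 3.65).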

How the results depend on the processing

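With 1 library per genotype and no cell assigned to its heart, no replicate could be left out. No paired analysis was possible because each genotype has 1 library and no test was made. The members' share of barcodes within the limits was lower in KO under all 11 alternatives, and their share of C1q-positive barcodes higher under all 11, by 3.05 points with the study's cell limits. The difference above the 75th percentile of the range turned to -7.11 points with the full gene lists and kept its sign in the other 13 alternatives, at 5.56 points with *Ccr2* of at least 5 per 10000 UMIs. That below the 25th percentile kept its sign in 7 of 14 and was 11.8 points in male and -14.1 points in female cells.

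Counts of genes past 2-fold changed with the CPM added. With 1 CPM added, 36 genes were higher and 89 lower in KO, 116 and 82 along the range, 224 and 420 against CCR2- macrophages, and 593 and 460 against monocytes. With 50 CPM these were 5 and 5, 16 and 9, 36 and 27, and 131 and 109. With at least 400 UMIs, 9 and 11 were left for KO over WT and 28 and 19 along the range, and with members thinned to one depth 10 and 19 for KO over WT. With *Ccr2* of at least 5 per 10000 UMIs, 24 genes were lower in KO and 187 lower than in CCR2- macrophages, and with C1q of at least 20 per 10000 UMIs 26 were higher along the range. The full lists gave 153 and 151 along the range, female cells 22 and 25, and male cells 35 genes higher in KO. Chosen after seeing the data were members low in resident genes, with 199 genes lower than in CCR2- macrophages, leaving out the top cell, with 13 higher in KO, leaving out cells of both sexes, and leaving out shared barcodes, which held no member. The causes were not tested.

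Of the 28 gene ratios recomputed, *Gpnmb* turned to -1.61 with *Ccr2* per 10000 UMIs and -0.45 in female cells, *Lyve1* to 0.13 with *Ccr2* per 10000 UMIs and 0.84 in members low in resident genes, *Retnla* to -0.60 in female cells and *Folr2* to 0.10 in members low in resident genes. Members low in resident genes were chosen on *Folr2* and *Lyve1* among others. The other 24 kept their sign under all 16 alternatives, *Mmp19* at 0.03 with *Ccr2* of at least 8 UMIs. Pooling, 1 library per genotype and 283 cells limit every comparison between genotypes.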
